A study of Mus musculus with 12 samples.

Results

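Hyaluronan is a long sugar chain of the extracellular matrix, and the genes described here make it, bind it, break it down or receive it at the cell surface. They are 10 of the 54352 gene symbols counted in cultured adventitial fibroblasts of the mouse aorta and were chosen by name for their known roles: the aggregating proteoglycans (lecticans) Vcan and Acan, the hyaluronan synthases Has1, Has2 and Has3, the link proteins Hapln1 and Hapln3, the hyaluronidases Hyal1 and Hyal2, and the receptor Cd44. The study asked whether fibroblasts from different stretches of the aorta keep their differences in culture and respond differently to TGFβ. Primary fibroblasts grew out of pieces of adventitia, the outer layer of the vessel wall, from WT C57Bl/6 mice that the labels give as 14 weeks old. The animals were male according to the methods, which give a younger age. One source was the aortic root with the ascending aorta and the other was the descending thoracic aorta down to the renal arteries. Every culture was passaged and then kept for 48 h with solute (0 ng/mL TGFβ, control) or with mouse TGFβ at 10 ng/mL. The 4 groups, descending control, descending TGFβ, ascending control and ascending TGFβ, held 3 libraries each. The labels do not say which cultures came from the same animals, so p-values measure the spread between these cultures, which may be technical.

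Hyaluronan synthases sit in the plasma membrane and extrude the growing chain directly into the matrix. Versican and aggrecan, the products of Vcan and Acan, bind the chain through their N-terminal globular domain, link proteins lock that bond, and the chondroitin sulfate chains on the proteoglycan core draw in water, so that the aggregate swells and resists compression. Versican is the main lectican of the arterial wall, whereas aggrecan is best known from cartilage. Hyaluronidases and other enzymes cut the chain into fragments, and CD44 tethers hyaluronan to the cell.

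The libraries held 16250126 to 23892943 counted reads. Levels are given as normalized CPM, a count scaled to the size of its library after TMM normalization. A count of 3 was the floor of a library, equal to 0.117 to 0.207 normalized CPM, and covers counting error alone. Descending control replicate 3 stood apart from the other libraries. It detected 13031 genes, where the others detected 19337 to 20931, and mitochondrial genes took 11% of its counts, where they took 0.703 to 1.03% elsewhere. Fold changes that used this library are therefore given with and without it. The labelled cell type was checked with markers: 9 of 9 fibroblast markers lay above the floor in every group, with a summed level of 14330 to 26210 normalized CPM. A sum of 6 early targets of TGFβ was 1912 to 3259 normalized CPM in control and 15880 to 16600 in TGFβ libraries. Markers of smooth muscle, which activated fibroblasts share, summed to 1582 to 1696 in ascending and 2511 to 2556 in descending control, and to 5108 to 5195 in ascending and 7961 to 8382 normalized CPM in descending TGFβ libraries. The other marker lists were lower, and several moved with site or treatment. Endothelial markers summed to 23.9 to 27.9 in control and 4.86 to 11.3 normalized CPM in TGFβ libraries, with Emcn and Cldn5 at the floor in each group. Between the sites adipocyte markers did not overlap, at 0.0473 to 6.04 in ascending and 11.3 to 34.7 in descending libraries, and of these 5 genes Lep was at the floor in both ascending groups. Mesothelial markers did not overlap either, at 19.7 to 44.2 in ascending and 6.89 to 13.9 in descending libraries, with Wt1, Krt8 and Krt18 of the 7 at the floor in each group. Krt19 of this list went against the sum: with TGFβ it was lower in ascending fibroblasts (log2 difference -1.78), where Upk3b was higher (4.49). Cardiomyocyte markers were at 3.36 to 7.98 in ascending and 0.856 to 1.84 in descending libraries, with Myh6 at the floor in each group. Actc1, Myl7 and Nppa were also at the floor in both ascending groups, so that only Tnnt2 and Ttn of the 6 lay above it there. Schwann cell markers summed to 16.7 to 28.4 in ascending and 11.9 to 24.8 normalized CPM in descending libraries, and Sox10 was at the floor in the descending groups. Macrophage and leukocyte markers summed to 53.2 to 342.9 in ascending control, the highest in replicate 2, and to 29.5 to 41.8 in ascending TGFβ, and to 27.5 to 48.1 in descending control and 14.7 to 26.9 normalized CPM in descending TGFβ libraries. The sums of the smooth muscle, endothelial, adipocyte, Schwann cell and macrophage lists did not overlap between treatments at either site, nor did those of mesothelial markers (33.5 to 44.2 in control, 19.7 to 26.5 with TGFβ) and cardiomyocyte markers in ascending fibroblasts. The part of these markers in the members' responses to TGFβ was not tested. In bulk RNA, fewer cells of a type and less RNA per cell cannot be told apart.

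With TGFβ, ascending fibroblasts carried more transcripts of Has2, Acan, Cd44, Has1 and Vcan and fewer of Has3, Hyal1 and Hyal2. The test was edgeR's quasi-likelihood F-test (two-sided), and a gene was called at a Benjamini-Hochberg adjusted p under 0.05. Here 8 members passed the filter on low counts and 8 were called, 5 higher and 3 lower, where 55.8% of all genes tested were called. DESeq2 called 6 of them, without Has3 and Hyal2, and edgeR with the 12 libraries in one fit called 3, Acan, Has2 and Cd44. The filter bears on this count: Acan, Has2 and Has3 passed it only through the group in which they were higher, and of the other 5 members tested 5 were called, 3 higher and 2 lower. In descending fibroblasts Has2 was the 1 called of 7 members tested, where 8.07% of all genes were called. Without descending control replicate 3, 5 of 7 were called, with Vcan, Has1, Has2 and Cd44 higher and Hyal2 lower, where 52.9% of all genes were called. The descending count was 0 when descending control replicate 1 or any descending TGFβ library was left out, with an edgeR adjusted p of 0.05895 to 0.08933 for Has2.

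Between the sites, ascending fibroblasts had less Vcan, Has1, Has2, Hyal1 and Cd44 and more Acan than descending fibroblasts when both were treated with TGFβ. There 6 of 8 members tested were called, 1 higher and 5 lower in ascending, where 36.3% of all genes were called. With the 12 libraries in one fit edgeR called 4, without Hyal1 and Cd44. Acan passed the filter only through ascending TGFβ, and of the other 7 members 5 were called, all of them lower in ascending. Among control cultures 2 of 7 members tested were called, Vcan and Cd44, both lower in ascending, where 2.65% of all genes were called. Without descending control replicate 3 the count was 6 of 8, where 31.6% of all genes were called. Acan and Has3 then passed the filter only through ascending control, and of the other 6 members 5 were called. It was 0 when any other control library was left out, with an edgeR adjusted p of 0.07922 to 0.2434 for Vcan and 0.09754 to 0.2752 for Cd44. The smooth muscle, adipocyte, mesothelial, cardiomyocyte and cartilage marker sums separated the sites within each treatment as well, as did the sums of endothelial and Schwann cell markers with TGFβ and of macrophage markers in both treatments, and their part in the members' site differences was not tested. The interaction of site and treatment asks whether the response to TGFβ differed between the sites. No member was called by edgeR over the 12 libraries (0 of 8 tested, where 0.806% of all genes were called), with 2 at an unadjusted p under 0.05. DESeq2 called 1, Cd44, and limma's voom with sample quality weights called 2, Has2 and Cd44. Without descending control replicate 3 edgeR also called Has2 and Cd44, 2 of 8, where 13.5% of all genes were called. The counts of members are small and carry no test of their own against these shares.

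**Figure D1:**
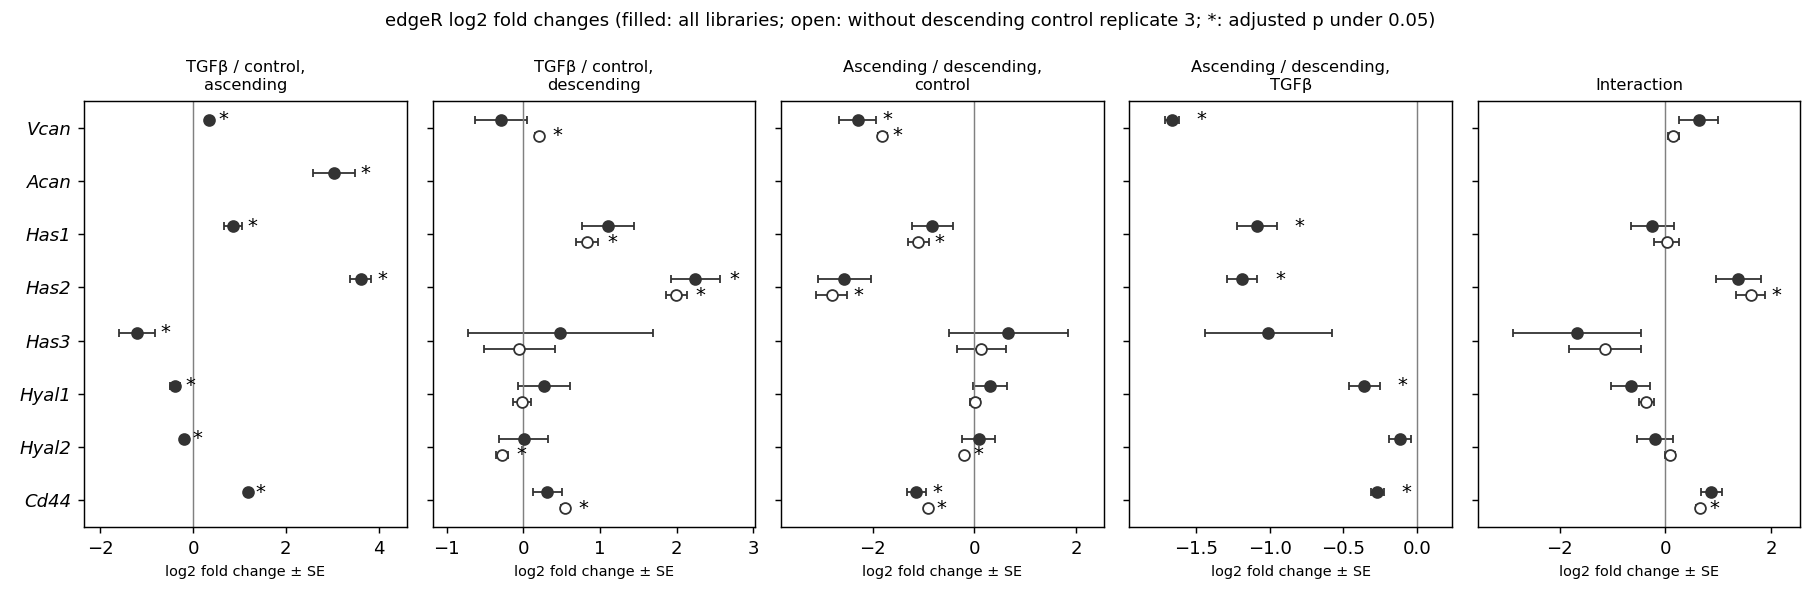
log2 fold changes (x axis, with their standard error) of the members in 5 comparisons, from edgeR with all libraries (filled) or without descending control replicate 3 (open). An asterisk marks an adjusted p under 0.05, which for Acan, Has2 and Has3 in ascending fibroblasts comes from genes that passed the filter only through their higher group; Acan appears only in the ascending panel because descending libraries were at the floor, and Hapln1 and Hapln3 were not tested. Has2 lies farthest to the right in both TGFβ panels, at 3.61 and 2.24, and Vcan farthest to the left in the panel of the TGFβ-treated sites, at -1.67.

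Levels of different genes were compared per kilobase of exon. Cd44 led in each group, at 19.5 normalized CPM per kb in ascending control and 44.8 with TGFβ, and at 43.2 in descending control and 54.0 with TGFβ. In descending TGFβ it was followed by Vcan (12.0), Hyal2 (7.80), Has2 (3.86), Hyal1 (3.17) and Has1 (2.28), and the ranges of neighbours in this order did not overlap. In ascending TGFβ Hyal2 (7.20 normalized CPM per kb) stood above Vcan (3.78), followed by Hyal1 (2.47), Has2 (1.69), Has1 (1.07) and Acan (0.474), again without overlap between neighbours. In ascending control Hyal1 (3.22) and Vcan (2.97 normalized CPM per kb) overlapped, as did each of Has3, Has2, Hapln3 and Acan with the next in the order, down to Hapln1, at means of 0.161 or below. In descending control Vcan (14.6) and Hyal2 (7.72) came after Cd44, and Hyal1 (2.60) overlapped with Has1 (1.05 normalized CPM per kb), which overlapped with Has2 (0.807). Without its replicate 3 these 3 no longer overlapped and their order was the same.

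**Figure D2:**
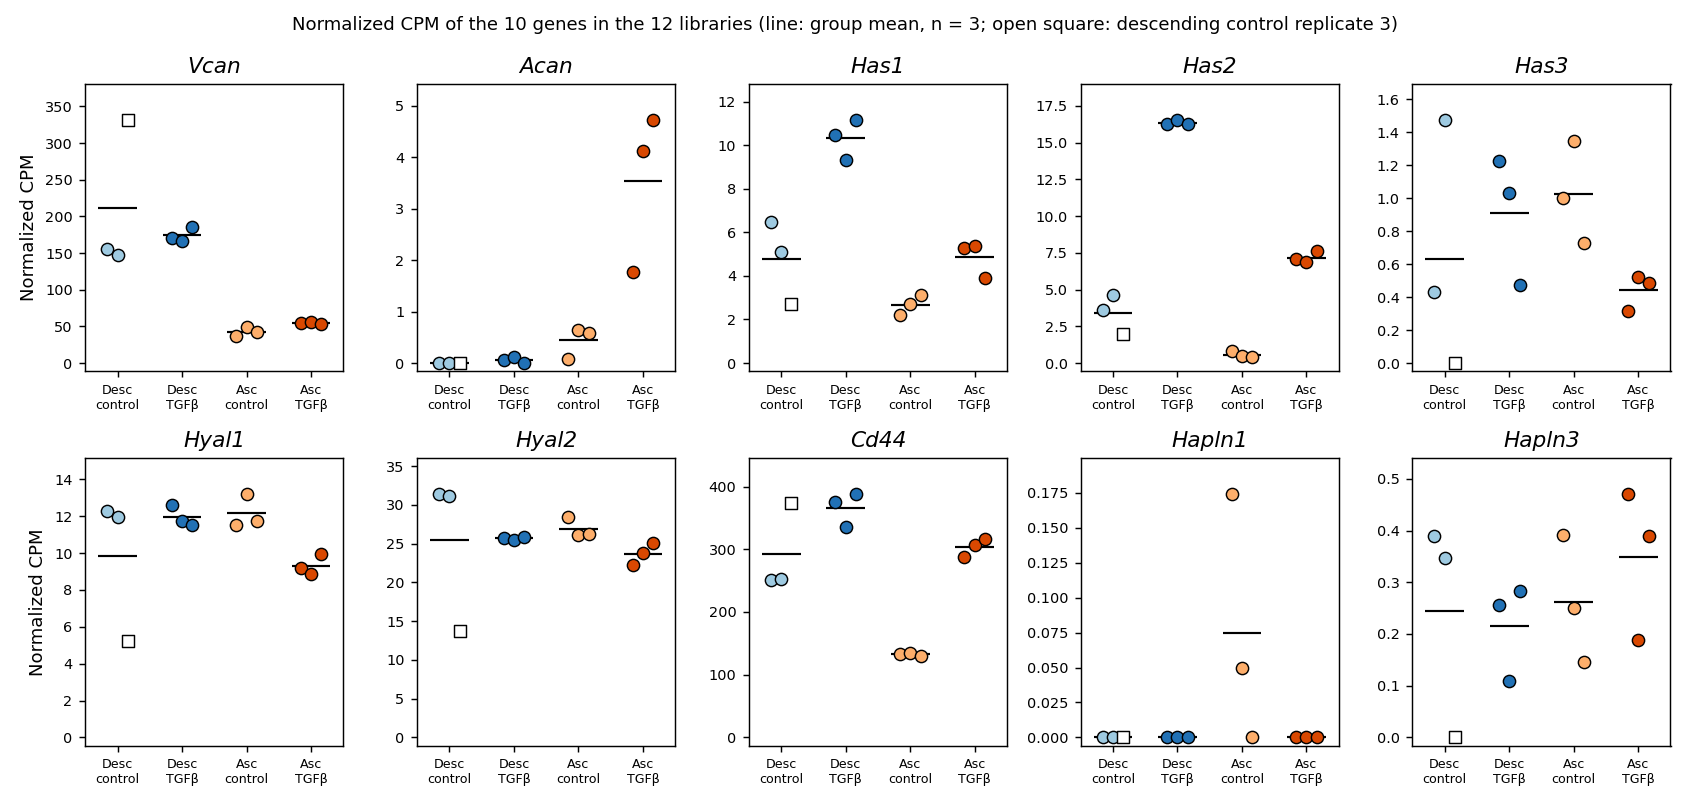
Normalized CPM (y axis, a separate scale per gene starting at 0) of the 10 genes in the 12 libraries. Circles are libraries, the open square is descending control replicate 3 and lines are means of 3 libraries; the 3 ascending TGFβ libraries of Acan lie at 1.77 to 4.72, above the other 9, and the 3 descending TGFβ libraries of Has2 at 16.3 to 16.5.

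Vcan (chr13:89655312-89742509, minus strand, GRCm38) encodes versican. In descending fibroblasts it measured 156, 147 and 331 normalized CPM in control and 170, 167 and 185 with TGFβ. In ascending fibroblasts it measured 36.8, 49.6 and 42.4 in control and 54.8, 55.7 and 53.7 normalized CPM with TGFβ. Each descending library lay above each ascending one, and each ascending TGFβ library above the ascending controls. Ascending minus descending was -1.67 ± 0.05 (SE) on the log2 scale with TGFβ (edgeR adjusted p = 1.355e-21). In control it was -2.30 ± 0.37 (edgeR adjusted p = 0.03712) and -1.81 ± 0.09 without descending control replicate 3 (edgeR adjusted p = 1.969e-09). The site difference exceeded the response to TGFβ in size. In ascending fibroblasts TGFβ raised Vcan by 0.35 ± 0.08 on the log2 scale (edgeR adjusted p = 0.001077, or 0.4864 with the 12 libraries in one fit). In descending fibroblasts the direction depended on 1 library: the change was -0.29 ± 0.34 with all libraries (edgeR adjusted p = 0.6521) and 0.20 ± 0.06 without descending control replicate 3, whose Vcan level was the highest of the 12 (edgeR adjusted p = 0.002593).

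Acan (chr7:79053483-79115099, plus strand), which encodes aggrecan, had the opposite site pattern, at lower levels per kb. Its counts in descending fibroblasts were 0, 0 and 0 in control and 1, 2 and 0 with TGFβ. In ascending fibroblasts they were 2, 13 and 12 in control and 34, 87 and 97 with TGFβ. Descending libraries were at the floor in both groups, and so was ascending control replicate 1. In ascending fibroblasts the mean level was 0.440 ± 0.308 normalized CPM in control and 3.54 ± 1.56 after TGFβ treatment (SD, n = 3 each). The log2 fold change was 3.03 ± 0.45. With TGFβ the mean was at least 23.2-fold higher in ascending than in descending fibroblasts when the latter were set to the floor of 3 counts per library. In control it was at least 2.91-fold higher, on 2 of 3 ascending libraries above the floor, and at least 3.57-fold higher without descending control replicate 3. No p is given for these differences, because Acan passed the filter only through the group in which it was higher, in control only without that replicate. Of 8 cartilage markers, Col9a1, Matn1, Cnmd and Snorc were at the floor in each group. The summed level of the 8 was 153 to 159 normalized CPM in ascending control, 286 to 317 in ascending TGFβ, 245 to 263 in descending control and 650 to 739 in descending TGFβ, mostly Col2a1 and Sox9. With TGFβ in ascending fibroblasts the 3 of these markers that were tested rose by edgeR, Col2a1 by 1.48, Matn3 by 1.18 and Sox9 by 0.41 on the log2 scale. Between the TGFβ-treated sites Sox9 (0.51, edgeR adjusted p = 2.195e-10) and Matn3 (0.64, edgeR adjusted p = 0.0005256) were higher in ascending fibroblasts and Col2a1 was lower (-1.86, edgeR adjusted p = 3.349e-21). The sum was higher in the descending groups, where Acan was at the floor, and the part of these markers in the Acan result was not tested.

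The sequences before the RefSeq starts of the lecticans and of Has1 are printed because these genes moved together with TGFβ in ascending fibroblasts while the lecticans went opposite ways between the sites. Each is the 250 bases upstream on the gene's own strand (RefSeq, GRCm38.p6): chr7:79052976-79053225 for Acan, chr13:89742513-89742762 for Vcan and chr17:17855189-17855438 for Has1. The stretch just after the RefSeq start was found in 0 GENCODE transcripts of Acan, 0 of Vcan and 2 of Has1, so the lectican starts are less certain. Capitals mark every match on either strand to GTCTG, a core motif of the SMAD proteins that carry the TGFβ signal, or to GGGCGG, the binding motif of Sp factors.
Acan: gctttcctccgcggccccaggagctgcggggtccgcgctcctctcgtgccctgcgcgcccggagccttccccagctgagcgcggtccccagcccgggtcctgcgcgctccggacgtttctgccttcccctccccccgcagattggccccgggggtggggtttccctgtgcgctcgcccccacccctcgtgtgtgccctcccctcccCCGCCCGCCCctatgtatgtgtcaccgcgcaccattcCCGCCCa
Vcan: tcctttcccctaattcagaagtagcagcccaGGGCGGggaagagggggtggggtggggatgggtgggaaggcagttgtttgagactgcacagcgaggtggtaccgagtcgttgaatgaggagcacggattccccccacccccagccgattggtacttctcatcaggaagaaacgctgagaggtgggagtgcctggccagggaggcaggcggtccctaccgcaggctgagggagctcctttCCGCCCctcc
Has1: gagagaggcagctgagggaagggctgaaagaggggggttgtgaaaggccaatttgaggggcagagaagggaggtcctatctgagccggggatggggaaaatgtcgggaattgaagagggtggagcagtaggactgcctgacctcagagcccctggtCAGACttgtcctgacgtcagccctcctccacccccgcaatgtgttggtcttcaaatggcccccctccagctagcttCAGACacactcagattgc

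The Acan window held 3 matches to GGGCGG, which overlap in 1 pair, and had a GC content of 74.4%. The Vcan window held 2 matches to GGGCGG, and the Has1 window 2 matches to GTCTG. Among 27025 promoter windows of this length, 32.9% held GGGCGG and 42.1% held GTCTG. Of the 8 members with such a sequence, Hyal1, Hapln1 and Hapln3 also held GTCTG and Hyal1 and Hyal2 held GGGCGG. The Cd44 window held neither. The AP-1 motif TGANTCA was in 6.87% of the windows and in none of the 8, and TATAAA in 13% and in that of Hapln3. A match is a description of the letters, not of binding.

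Has2 (chr15:56665627-56694539, minus strand), the synthase best known from development of the heart and vessels, had the largest estimated rise among the members with a fold change at both sites. Its counts in ascending fibroblasts were 19, 10 and 8 in control and 135, 145 and 156 with TGFβ, or 0.571 ± 0.227 and 7.17 ± 0.384 normalized CPM (SD, n = 3 each). The log2 difference was 3.61 ± 0.24, given with no p because Has2 passed the filter only through ascending TGFβ. In descending fibroblasts it measured 3.62, 4.64 and 2.00 normalized CPM in control and 16.3, 16.5 and 16.3 with TGFβ, so that the groups did not overlap at either site. The descending change was 2.24 ± 0.32 (edgeR adjusted p = 0.01331) and 1.99 ± 0.14 without control replicate 3 (edgeR adjusted p = 1.805e-13). Each ascending library had less Has2 than the descending libraries of the same treatment. The difference was -1.19 ± 0.10 on the log2 scale with TGFβ (edgeR adjusted p = 1.136e-10). In control it was -2.81 ± 0.31 without descending control replicate 3 (edgeR adjusted p = 7.762e-06). With all libraries it was -2.56 ± 0.53, not called by edgeR, and Has2 passed the filter only through descending control. The antisense gene Has2os overlaps 4.30% of the Has2 exons and had 0 to 32 counts per library, with the most in descending control replicate 3.

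Has1 (chr17:17843323-17855205, minus strand), another hyaluronan synthase, also rose, by less. In descending fibroblasts its levels were 6.49, 5.07 and 2.69 normalized CPM in control and 10.5, 9.32 and 11.2 with TGFβ. In ascending fibroblasts they were 2.21, 2.70 and 3.12 in control and 5.27, 5.39 and 3.90 normalized CPM with TGFβ. TGFβ libraries lay above control libraries at each site without overlap. The log2 fold change with TGFβ was 0.86 ± 0.20 in ascending (edgeR adjusted p = 0.001463, or 0.0776 with the 12 libraries in one fit) and 1.10 ± 0.34 in descending fibroblasts (edgeR adjusted p = 0.1184), or 0.83 ± 0.15 without descending control replicate 3 (edgeR adjusted p = 1.533e-05). With TGFβ, Has1 was lower in ascending fibroblasts by -1.09 ± 0.14 on the log2 scale (edgeR adjusted p = 2.048e-07). In control the difference was -0.83 ± 0.40 (edgeR adjusted p = 0.4684) and, without descending control replicate 3, -1.10 ± 0.20 (edgeR adjusted p = 0.0008244).

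Has3 (chr8:106870242-106884566, plus strand), the synthase credited with shorter chains, was close to the floor. Its counts were 23, 27 and 15 in ascending control and 6, 11 and 10 in ascending TGFβ, a log2 difference of -1.20 ± 0.38, given with no p because Has3 passed the filter only through ascending control. Its call was lost without ascending control replicate 2 (-0.97, edgeR adjusted p = 0.08256) and without ascending TGFβ replicate 1 (-1.02, edgeR adjusted p = 0.06108), and with the 12 libraries in one fit (edgeR adjusted p = 0.4615). In descending fibroblasts the counts of 11, 34 and 0 in control and 24, 19 and 10 with TGFβ overlapped, and the change was 0.48 ± 1.21 (edgeR adjusted p = 0.845), or -0.05 ± 0.46 without control replicate 3 (edgeR adjusted p = 0.9356). With TGFβ, Has3 differed by -1.01 ± 0.43 between the sites (edgeR adjusted p = 0.06799). Without descending TGFβ replicate 3 it differed by -1.34, given with no p because Has3 then passed the filter only through descending TGFβ. The exons of Has3 overlap those of Chtf8 on the other strand over 5.52% of their length.

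Summed per kilobase, the transcripts of the 3 synthases measured 0.842, 0.926 and 0.896 normalized CPM per kb in ascending control and 2.88, 2.89 and 2.73 with TGFβ. In descending fibroblasts the sum was 2.36, 2.45 and 1.07 in control and 6.35, 6.13 and 6.38 normalized CPM per kb with TGFβ. The descending TGFβ libraries were highest and the ascending control libraries lowest, and each descending control library lay below the ascending TGFβ libraries. The makeup changed along with the sum. Has2 made up 23.1, 12.7 and 10.3% of it in ascending control, 57.8, 55.9 and 65.6% in ascending TGFβ, 36.2, 44.7 and 44.2% in descending control and 60.5, 63.7 and 60.1% in descending TGFβ. Has1 was the larger share in each control library and Has2 in each TGFβ library. The ratio of Vcan to the synthase sum, both per kb, was 3.03 to 3.70 in ascending control and 1.32 to 1.36 in ascending TGFβ. It was 4.16 to 21.5 in descending control, the highest in replicate 3, and 1.86 to 2.01 in descending TGFβ. These sums and ratios have 3 libraries a group and were not tested.

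**Figure D3:**
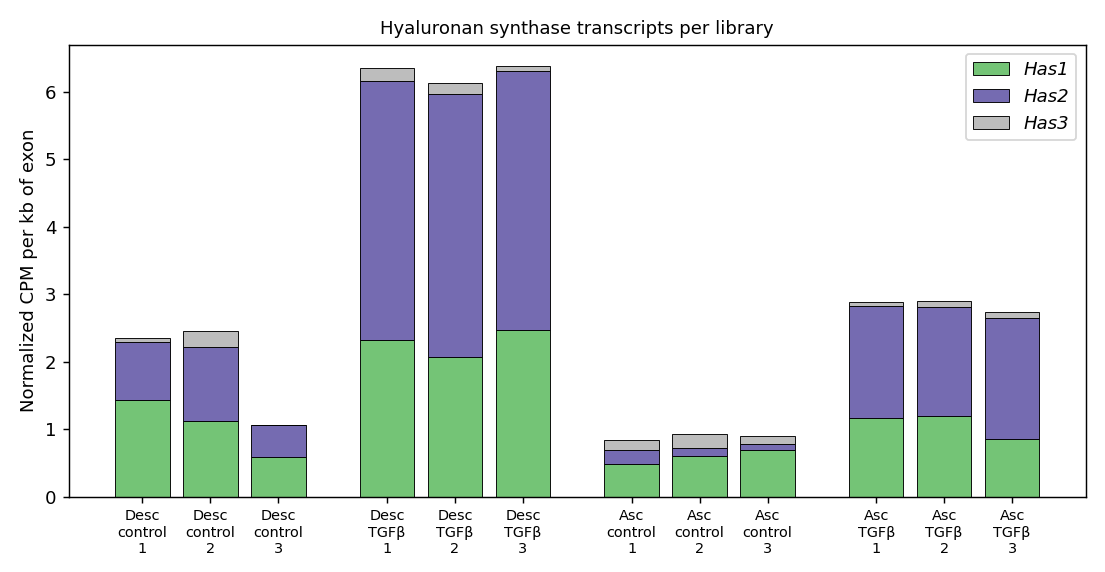
Has1, Has2 and Has3 stacked for each of the 12 libraries (y axis, normalized CPM per kb of exon, from 0). The sum lies at 6.13 to 6.38 in descending TGFβ and at 0.842 to 0.926 in ascending control, and the Has2 segment is larger than the Has1 segment in the 6 TGFβ libraries.

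The link proteins, which fasten lecticans to hyaluronan, were close to absent from the counts. Hapln1 (chr13:89539796-89611652, plus strand) had 4, 1 and 0 counts in ascending control and 0 in the other 9 libraries. Hapln3 (chr7:79115102-79131018, minus strand) had 0 to 10 counts per library, with group means of 0.216 to 0.350 normalized CPM. Neither passed the filter in a comparison, and a difference was not detectable at this depth. Of the other lecticans and link proteins (Bcan, Ncan, Hapln2, Hapln4), Hapln4 was tested and rose in ascending fibroblasts by 1.45 ± 0.34 on the log2 scale (edgeR adjusted p = 0.001574), at a mean level of 1.45 normalized CPM. In descending fibroblasts Hapln4 changed by 1.89 ± 1.06 (edgeR adjusted p = 0.3445) and Bcan by 1.89 ± 1.06 (edgeR adjusted p = 0.3437). Both were higher without control replicate 3, which had no count of either, Hapln4 by 1.36 ± 0.30 (edgeR adjusted p = 0.0003458) and Bcan by 1.40 ± 0.49. No p is given for this Bcan change, because Bcan passed the filter only through descending TGFβ.

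The hyaluronidases changed little. Hyal2 (chr9:107567945-107572779, plus strand), which cuts long chains at the cell surface, measured 28.4, 26.1 and 26.2 normalized CPM in ascending control and 22.2, 23.8 and 25.1 in ascending TGFβ. The groups did not overlap, and the log2 change was -0.19 ± 0.07 (edgeR adjusted p = 0.02228). The call was lost without ascending control replicate 1, ascending TGFβ replicate 1 or ascending TGFβ replicate 2 (edgeR adjusted p = 0.1066, 0.09849 and 0.05272) and with the 12 libraries in one fit (0.7526). In descending fibroblasts Hyal2 measured 31.3, 31.2 and 13.8 in control and 25.7, 25.5 and 25.9 normalized CPM with TGFβ. Control replicate 3 lay below and the other controls above the TGFβ libraries, and the log2 change was 0.01 ± 0.32 with it (edgeR adjusted p = 0.9925) and -0.28 ± 0.08 without it (edgeR adjusted p = 0.002813). Between the sites Hyal2 differed by -0.11 ± 0.07 with TGFβ (edgeR adjusted p = 0.2357). In control the site difference was 0.09 ± 0.32 (edgeR adjusted p = 0.9021), or -0.20 ± 0.07 without descending control replicate 3 (edgeR adjusted p = 0.03045).

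Hyal1 (chr9:107576927-107581710, plus strand), a lysosomal hyaluronidase, measured 11.6, 13.2 and 11.7 normalized CPM in ascending control and 9.19, 8.84 and 9.93 in ascending TGFβ, without overlap. The log2 change was -0.39 ± 0.10 (edgeR adjusted p = 0.004269, or 0.417 with the 12 libraries in one fit). In descending fibroblasts the levels were 12.3, 12.0 and 5.24 in control and 12.6, 11.8 and 11.5 normalized CPM with TGFβ, and the change was 0.27 ± 0.34 (edgeR adjusted p = 0.6733) or, without control replicate 3, -0.02 ± 0.11 (edgeR adjusted p = 0.9094). With TGFβ it was lower in ascending fibroblasts by -0.36 ± 0.11 on the log2 scale (edgeR adjusted p = 0.008426, or 0.6866 with the 12 libraries in one fit). In control the site difference was 0.31 ± 0.34 (edgeR adjusted p = 0.684) and, without descending control replicate 3, 0.01 ± 0.11 (edgeR adjusted p = 0.9395). The exons of Naa80 on the same strand cover 50.8% of those of Hyal1, so its counts are uncertain.

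Cd44 (chr2:102811141-102901665, minus strand), the main cell surface receptor for hyaluronan, had the highest level per kb. It measured 132, 134 and 130 normalized CPM in ascending control, 287, 306 and 317 in ascending TGFβ, 250, 253 and 374 in descending control and 375, 336 and 387 in descending TGFβ. Ascending control was the low group, below the other 9 libraries, and descending control replicate 3 lay within the range of descending TGFβ. With TGFβ Cd44 rose in ascending fibroblasts by 1.19 ± 0.04 on the log2 scale (edgeR adjusted p = 9.033e-14). In descending fibroblasts the change was 0.32 ± 0.20 (edgeR adjusted p = 0.3872), or 0.54 ± 0.06 without control replicate 3 (edgeR adjusted p = 1.288e-09). The site difference was -1.14 ± 0.19 in control (edgeR adjusted p = 0.04292), or -0.91 ± 0.04 without descending control replicate 3 (edgeR adjusted p = 1.09e-09). With TGFβ it was -0.27 ± 0.05 (edgeR adjusted p = 2.205e-05, or 0.4291 with the 12 libraries in one fit).

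The interaction compared the log2 responses of the sites (ascending minus descending). For Has2 it was 1.38 ± 0.43 over the 12 libraries (edgeR adjusted p = 0.243) and 1.62 ± 0.27 without descending control replicate 3 (edgeR adjusted p = 0.000143). For Cd44 it was 0.87 ± 0.20 (edgeR adjusted p = 0.0888) and 0.65 ± 0.07 without that library (edgeR adjusted p = 1.977e-07). Both genes thus had the larger fold in ascending fibroblasts, from the lower control level, and ended lower than in descending fibroblasts. Has1 had an interaction of -0.25 ± 0.41, or 0.03 ± 0.24 without the library, and Vcan of 0.63 ± 0.37, or 0.15 ± 0.10, neither called by edgeR (adjusted p = 0.3853 to 0.9652). Has3 had -1.67 ± 1.22 or -1.15 ± 0.69, Hyal1 -0.66 ± 0.36 or -0.37 ± 0.14 and Hyal2 -0.19 ± 0.34 or 0.10 ± 0.10, and none of the 3 was called by edgeR (adjusted p = 0.09915 to 0.8014). For Acan the interaction has no usable value because its descending libraries were at the floor.

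The pattern over libraries was also compared with that of the 12706 other genes with a mean of at least 1 CPM, by Pearson's r of log2 CPM, as a description. Over the 12 libraries Vcan was nearest to Frmd4a (r = 0.992), Zfhx4 (0.986) and Ak5 (0.985), and over 11 libraries, without descending control replicate 3, to Cacna1c (0.991), Frmd4a (0.991) and Serpinf1 (0.989). Has2 was nearest to Armcx4 (r = 0.986), Tmcc3 (0.984) and Srpx2 (0.983), and over 11 libraries to Tgfb1i1 (0.992), Eng (0.992) and Ankrd44 (0.991). Acan, at low counts, was nearest to C430002N11Rik (r = 0.949), Psmc4 (0.947) and Tsc22d2 (0.943), and over 11 libraries to Nek7 (0.969), Tmem50b (0.961) and Bag3 (0.956). The points are libraries in 4 groups, so these values follow the group means. Hapln1, with 5 counts in all, gave no interpretable pattern.

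Genes that supply, decorate and cut these molecules were described from lists. Their counts stand beside those of all genes tested: with TGFβ, 28.2% of all genes rose and 27.6% fell in ascending fibroblasts, 3.59% rose and 4.48% fell in descending fibroblasts, and 26.6% rose and 26.3% fell there without control replicate 3. For comparison, the median log2 change of all genes tested was 0.00 in ascending fibroblasts, 0.02 in descending fibroblasts and -0.01 there without control replicate 3. Of 6 tested enzymes that make the UDP-sugars used as building blocks, 2 rose and 3 fell with TGFβ in ascending fibroblasts. Ugdh, which makes UDP-glucuronic acid, fell by 0.79 ± 0.03 on the log2 scale (edgeR adjusted p = 6.865e-13), and Gfpt1, which opens the hexosamine pathway, rose by 0.67 ± 0.05 (edgeR adjusted p = 2.956e-09). In descending fibroblasts 1 of the 6 was called, Ugdh, with -0.85 ± 0.13 (edgeR adjusted p = 0.01579), where Gfpt1 changed by 0.42 ± 0.11 (edgeR adjusted p = 0.08042). Without control replicate 3 Ugdh fell by 0.75 ± 0.05 (edgeR adjusted p = 1.933e-13) while Gfpt1 rose by 0.48 ± 0.05 (edgeR adjusted p = 4.463e-09). The list's median in ascending fibroblasts was -0.04.

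Of 23 listed enzymes of chondroitin and dermatan sulfate chains, the chains that versican and aggrecan carry, 22 were tested in ascending fibroblasts, where 13 rose and 5 fell with TGFβ (median log2 change 0.19), beside the 55.8% of all genes that were called. Chst11, which sulfates chondroitin at the 4-O position, measured 19.0 ± 0.972 normalized CPM in control and 133 ± 4.56 after TGFβ treatment (SD, n = 3 each), a log2 difference of 2.81 ± 0.05 (edgeR adjusted p = 1.004e-16). Papss2, which makes the sulfate donor, rose by 0.97 ± 0.04 (edgeR adjusted p = 7.315e-12) and Chst15, another chondroitin sulfotransferase, by 0.60 ± 0.18 (edgeR adjusted p = 0.0109). Chpf, the gene of the list with the highest normalized CPM, changed by 0.00 ± 0.03 (edgeR adjusted p = 0.9181). In descending fibroblasts 5 rose and 1 fell of 22, with Chst11 at 1.75 ± 0.17 (edgeR adjusted p = 0.003794), Chst15 at 1.49 ± 0.19 (edgeR adjusted p = 0.008932) and Papss2, not called, at 0.51 ± 0.46 (edgeR adjusted p = 0.5463). Without control replicate 3, 12 rose and 8 fell of 23 (median 0.26). In that fit Chst11 rose by 1.93 ± 0.06 (edgeR adjusted p = 2.171e-21), Papss2 by 1.25 ± 0.06 (edgeR adjusted p = 5.583e-18) and Chst15 by 1.58 ± 0.14 (edgeR adjusted p = 8.723e-11). Between the TGFβ-treated sites 3 of 22 were higher and 10 lower in ascending fibroblasts (median -0.06), where 18.1% of all genes were higher and 18.2% lower (median 0.00).

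Of 5 tested ADAMTS proteases that cut lecticans, 1 rose and 3 fell with TGFβ in ascending fibroblasts (median log2 change -0.80). Adamts5 fell by 0.80 ± 0.03 (edgeR adjusted p = 1.03e-13) and measured 2182 ± 46.2 normalized CPM in control and 1258 ± 19.5 after TGFβ treatment (SD, n = 3 each). Adamts1 fell by 1.19 ± 0.03 (edgeR adjusted p = 6.646e-15) and Adamts9 by 1.89 ± 0.14 (edgeR adjusted p = 5.08e-09). Adamts8, at a mean of 3.88 normalized CPM, rose by 2.57 ± 0.23 (edgeR adjusted p = 4.271e-08). The descending counts were also 1 higher and 3 lower of 5, the higher one being Adamts8, whose descending control libraries lay at 0 to 0.156 normalized CPM, at or near the floor. There Adamts5 changed by -0.60 ± 0.11 (edgeR adjusted p = 0.02478) and Adamts1 by -0.91 ± 0.13 (edgeR adjusted p = 0.01294). Without control replicate 3 Adamts5 was at -0.60 ± 0.05 (edgeR adjusted p = 4.56e-11), Adamts1 at -0.99 ± 0.05 (edgeR adjusted p = 5.638e-16), and the list had 2 higher and 4 lower of 6. In both descending fits Adamts8 passed the filter only through TGFβ, and in the second Adamts15 (-4.34) passed only through control. Of the others in that fit Adamts4 was higher and Adamts1, Adamts5 and Adamts9 were lower. Between the TGFβ-treated sites 1 was higher and 3 lower in ascending fibroblasts of 5 (median -0.22), with Adamts8 at 1.11 ± 0.16 on the log2 scale (edgeR adjusted p = 1.063e-06) and Adamts1 at -0.96 ± 0.04 (edgeR adjusted p = 1.158e-16).

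Of 8 tested further hyaluronan-binding proteins, 1 rose and 5 fell with TGFβ in ascending fibroblasts (median log2 change -0.44). Ptx3, a pentraxin built into hyaluronan networks, fell by 1.61 ± 0.05 (edgeR adjusted p = 1.328e-13), the scavenger receptor gene Stab1 by 1.85 ± 0.57 (edgeR adjusted p = 0.01126) and Hmmr, which also serves the mitotic spindle, by 0.26 ± 0.07 (edgeR adjusted p = 0.006314). Habp4 changed by 0.13 ± 0.06 (edgeR adjusted p = 0.05233). In descending fibroblasts 3 of 8 fell, Hmmr was at -1.94 ± 0.43 (edgeR adjusted p = 0.04883) and Ptx3 at -0.58 ± 0.19 (edgeR adjusted p = 0.1337). Without control replicate 3, 1 rose and 7 fell, with Hmmr at -1.36 ± 0.11 (edgeR adjusted p = 1.02e-11) and Ptx3 at -0.73 ± 0.07 (edgeR adjusted p = 1.997e-10). Macrophages also express Stab1, which ranged from 2.78 to 21.3 normalized CPM in ascending control with the highest value in replicate 2, and macrophage and leukocyte markers summed to 53.2 to 342.9 in ascending control and 29.5 to 41.8 normalized CPM in ascending TGFβ. Their part in the Stab1 result was not tested.

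Of 5 tested further hyaluronan-degrading proteins, 2 rose and 3 fell with TGFβ in ascending fibroblasts. Cemip, which encodes a hyaluronan-binding protein needed for hyaluronan breakdown in fibroblasts, measured 3129 ± 55.9 normalized CPM in control and 1997 ± 70.3 after TGFβ treatment (SD, n = 3 each), a log2 change of -0.65 ± 0.03 (edgeR adjusted p = 2.914e-12). Hexa, a lysosomal hexosaminidase, fell by 0.29 ± 0.04 (edgeR adjusted p = 1.357e-05), and Tmem2, a cell surface hyaluronidase, rose by 0.78 ± 0.07 (edgeR adjusted p = 3.424e-08). In descending fibroblasts edgeR called 0 of the 5, with 2 at an unadjusted p under 0.05, while DESeq2 called 1 as higher of the 7 listed genes it tested and voom with sample quality weights called 5 of 5 (2 higher, 3 lower). Cemip was at 0.05 ± 0.24 by edgeR (adjusted p = 0.9203) and Tmem2 at 0.66 ± 0.15 (edgeR adjusted p = 0.05381). Without control replicate 3, 2 rose and 3 fell of 6, with Cemip at -0.17 ± 0.05 (edgeR adjusted p = 0.006293) and Tmem2 at 0.58 ± 0.08 (edgeR adjusted p = 6.572e-07).

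**Figure D4:**
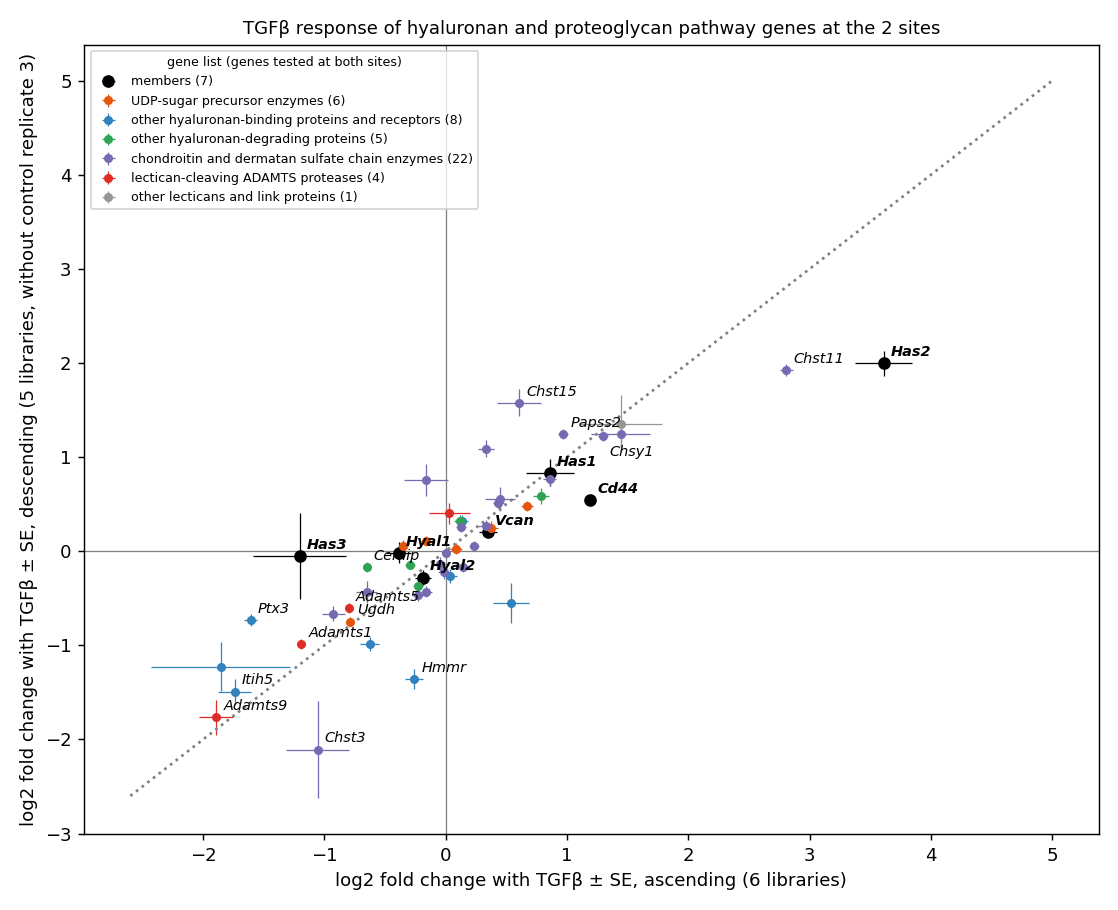
log2 fold change with TGFβ in ascending fibroblasts (x axis, 6 libraries) against descending fibroblasts without control replicate 3 (y axis, 5 libraries), each with its standard error, for the members (black) and the 6 gene lists; the dotted line marks equal change and the selected genes are named. Has2 lies at 3.61 and 1.99 and Cd44 at 1.19 and 0.54, below the line, and so does Chst11, at 2.81 and 1.93. Adamts8 is not drawn, as its descending control level was at or near the floor.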

How the data were processed

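RNA of 12 cultures, 3 per group, was measured by paired-end sequencing. The authors aligned the reads to mm10 and deposited one raw count per gene symbol and library; the submitters' processing notes name STAR and featureCounts. Strand setting, annotation and the handling of reads matching several genes are not given in the sources used here. The 12 columns were matched to samples by title.

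Counts were tested with edgeR 4.0.16 in R 4.3.3 (quasi-likelihood F-test, TMM, filterByExpr at its defaults of 10 counts and a total of 15, Benjamini-Hochberg adjustment over all genes tested, threshold 0.05), using only the groups compared, or the 12 libraries for the interaction. Standard errors are the log2 fold change divided by the square root of F. Positive values mean higher with TGFβ or in ascending fibroblasts. Normalized CPM used TMM factors over the 12 libraries, and lengths were exon unions of GENCODE vM21 (GRCm38). Correlations used log2 CPM with a prior count of 2. Alternatives were DESeq2 1.42.0, its size factors, no filter on low counts, the 12 libraries in one fit, the replicate number as a block, limma 3.58.1 voom with sample quality weights, the longest transcript as the length, and each library left out. Tested on simulated data, the 5 edgeR fits found 100% of 200 altered genes, and at most 6.54% of their calls were false. The simulation changed genes well above the floor by a fixed large fold and gave every library the same small spread. It does not give the power for small changes, for genes near the floor or for fits with descending control replicate 3. The biological coefficient of variation, a measure of spread between libraries, was 63.3% in descending control and 4.82% without that replicate. Figures were drawn with matplotlib 3.10.9 in Python 3.11.15.

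The members, gene lists and marker lists were chosen with earlier results of these data known. All members were named; of each list, the 2 genes with the highest mean level and the 2 with the largest called change at either site were named.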

Additional observations from a re-analysis of the deposited data

Results flagged for a closer look

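The response to TGFβ differed between the sites for Has2 and Cd44 by a test of the difference itself, the interaction of site and treatment without descending control replicate 3. The difference (ascending minus descending, log2 scale) was 1.62 for Has2, with an adjusted p of 0.000143 by edgeR's quasi-likelihood test, and 0.65 for Cd44, with an edgeR adjusted p of 1.977e-07. Over the 12 libraries the values were 1.38 and 0.87 and neither was called by edgeR (adjusted p = 0.243 and 0.0888). Leaving out any other single library gave 1.11 to 1.75 for Has2 and 0.81 to 0.97 for Cd44, none of them called.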

How the results depend on the processing

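Most values that changed with the processing came from comparisons that use descending control replicate 3. With the 12 libraries in one fit, edgeR called 2338 genes and 3 members (Acan, Has2, Cd44) for TGFβ in ascending fibroblasts, 3570 and 2 for TGFβ in descending fibroblasts, 1545 and 4 between the control sites and 1106 and 4 (Vcan, Acan, Has1, Has2) between the TGFβ-treated sites, where Hyal1 and Cd44 lost their call. DESeq2's Wald test called 2242 genes and 2 members for TGFβ in descending fibroblasts, 1034 genes between the control sites, and 419 genes and 1 member for the interaction. Voom with sample quality weights called 7335 genes and 5 members, 4392 genes and 4 members, and 1979 genes and 2 members in the same 3 comparisons. No filter on low counts left 56 genes called for the interaction. Leaving out one library at a time gave 213 to 7576 genes and 0 to 5 members for TGFβ in descending fibroblasts, 33 to 4631 genes and 0 to 6 members between the control sites, 25 to 2022 genes and 0 to 2 members for the interaction, and 6 to 8 members for TGFβ in ascending fibroblasts. The highest value was in each of the first 3 the one without descending control replicate 3. Same-numbered libraries did not deviate together (r of -0.022 to 0.095 over 18 pairs). With 3 libraries a group this check cannot tell whether same-numbered cultures share animals. With the replicate block, 95 genes and 0 members were called for TGFβ in descending fibroblasts, 0 genes and 0 members between the control sites and 50 genes for the interaction.

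Signs turned under voom, and without descending control replicate 3, for TGFβ in descending fibroblasts in Vcan (0.21 and 0.20), Has3 (-0.090 and -0.050), Hyal1 (-0.017 and -0.018) and Hyal2 (-0.28 and -0.28), for Hyal2 between the control sites (-0.20 and -0.20), and for the interaction of Hyal2 (0.10 and 0.10). The ranges over left-out libraries were -0.49 to 0.20, -0.050 to 1.96, -0.018 to 0.47 and -0.28 to 0.19 for those 4 genes, -0.20 to 0.26 for Hyal2 between the control sites and -0.37 to 0.10 for its interaction. The interaction of Has1 ranged from -0.53 to 0.028. That of Acan, with its descending libraries at the floor, was 0.49 by DESeq2, 1.86 by voom and -0.81 to 0.65 over left-out libraries. The cause was not tested. Over the members' fold changes, 189 of 220 values under other settings and 239 of 276 with a library left out kept their direction and their side of the threshold. With the longest transcript as the length, Has2 and Hyal1 exchanged places in descending TGFβ, and the order of the other levels was kept. Depth limits Acan, Has3, Hapln1 and Hapln3, whose counts were at or near the floor in at least 1 group.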
